A study of Mus musculus with 16 samples.

Results

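The genes of the cell junctions that join cardiomyocytes end to end at the intercalated disc were measured in the left ventricles of 16 male C57BL/6 mice by RNA sequencing of whole, pulverized tissue. The 10 members were chosen by name as rows of the deposited table of 55492 genes. They were 3 gap junction genes (Gja1, Gja5 and Gjc1), 5 desmosome genes (Dsp, Pkp2, Dsg2, Dsc2 and Jup), the adherens junction cadherin Cdh2 and the junction scaffold Tjp1. All 10 were found, and all 10 were among the 20576 genes that passed the filter on low values.

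Mice were 8 to 12 weeks old and belonged to 2 genotypes. PKM2fl/fl mice carried floxed alleles of the pyruvate kinase gene Pkm around the exon that is used only in the PKM2 isoform, and served as controls. PKM2-/- mice lacked that exon in every tissue, because the floxed allele had been removed in the germline by a CMV-driven Cre that was then bred out, so the loss was not restricted to cardiomyocytes. Hearts were taken with no surgery (baseline, n = 2 per genotype), 3 days after sham surgery (n = 3 per genotype) or 3 days after myocardial infarction (MI) by permanent ligation of the left anterior descending artery (n = 3 per genotype). The labels name the sample as left ventricle and do not separate the infarct from remote muscle.

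The intercalated disc holds 3 kinds of contact. Gap junctions are channels built from connexins that pass current and small molecules between neighbouring cells. Desmosomes tie the desmin filaments of neighbours together, with the cadherins desmoglein and desmocollin in the cleft, plakoglobin and plakophilin beneath them, and desmoplakin reaching to the filaments. Adherens junctions anchor the actin of the myofibrils through N-cadherin and the catenins. Loss of connexin 43 or of desmosomal proteins is known for arrhythmia and arrhythmogenic cardiomyopathy, and redistribution of connexin 43 is a known feature of infarcted myocardium.

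In the mm10 build, whose coordinates are those of GRCm38.p6, Gja5 (connexin 40) lies on chromosome 3 at 97032402 to 97053634, Tjp1 on chromosome 7 at 65296165 to 65527850, and Gja1 (connexin 43) on chromosome 10 at 56377300 to 56390419. Jup and Gjc1 (connexin 45) share chromosome 11, at 100368856 to 100397839 and 102799477 to 102819686. Dsp lies on chromosome 13 at 38151294 to 38198577 and Pkp2 on chromosome 16 at 16213345 to 16272712. Promoter windows of 300 bases around the start (250 before it and 50 after it), from RefSeq on GRCm38.p6, were searched for 5 members: Gja1, Gja5, Dsp, Jup and Tjp1. Those of Gja1 (chr10:56377050-56377349, + strand), Dsp (chr13:38151044-38151343, + strand) and Gja5 (chr3:97032152-97032451, + strand) are shown, because the first 2 belong to genes that were lower after MI and the third to the only member that was higher. Capitals mark matches, on either strand, to the GC box (GGGCGG), the AP-1 motif (TGANTCA), the GATA motif (AGATAA), the M-CAT motif (CATTCC) or the TATA motif (TATAAA).
Gja1: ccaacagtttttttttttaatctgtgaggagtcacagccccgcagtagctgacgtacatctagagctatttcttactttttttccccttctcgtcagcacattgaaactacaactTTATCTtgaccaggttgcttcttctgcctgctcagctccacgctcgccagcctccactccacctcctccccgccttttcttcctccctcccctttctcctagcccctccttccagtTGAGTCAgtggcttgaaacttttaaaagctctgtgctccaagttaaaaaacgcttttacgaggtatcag
Dsp: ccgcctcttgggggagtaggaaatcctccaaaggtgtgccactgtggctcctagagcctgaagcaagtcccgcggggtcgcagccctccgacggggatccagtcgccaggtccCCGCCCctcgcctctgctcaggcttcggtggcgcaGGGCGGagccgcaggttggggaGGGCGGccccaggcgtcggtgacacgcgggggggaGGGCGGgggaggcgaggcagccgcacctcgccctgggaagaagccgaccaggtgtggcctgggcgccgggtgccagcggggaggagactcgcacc
Gja5: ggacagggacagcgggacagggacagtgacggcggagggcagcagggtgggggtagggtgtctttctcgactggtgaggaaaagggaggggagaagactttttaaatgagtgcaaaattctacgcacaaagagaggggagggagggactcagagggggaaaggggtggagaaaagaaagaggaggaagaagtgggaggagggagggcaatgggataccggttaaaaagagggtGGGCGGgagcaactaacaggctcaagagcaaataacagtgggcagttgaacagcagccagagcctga

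The Dsp window held 4 GC boxes and had a GC content of 73.0%, against a median of 52.7% over the 32851 promoter windows of the table. The Gja1 window held no GC box but 1 AP-1 match, which began 19 bases before the start, and 1 GATA match, which began 135 bases before it on the opposite strand. The Gja5 window held 1 GC box, 17 bases before the start. Among all windows, 35.7% held a GC box, 7.81% an AP-1 match, 11.2% a GATA match, 14.7% an M-CAT match and 13.6% a TATA match. The matches did not overlap one another in these windows. A match is a description of the letters and was not tested as a binding site.

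Depth ranged from 20623769 to 71855101 reads on genes per library, and the least deep value of any member was 152 reads (Gja5). Reads on 7 loci related to rRNA took 15.8% to 46.0% of a library, with no overlap between genotypes at baseline (17.3% to 22.1% in PKM2fl/fl, 39.6% to 43.8% in PKM2-/-) or after sham surgery (15.8% to 27.8% against 28.6% to 46.0%). Their part in the genotype comparisons was not tested. Pkm, counted as a whole gene with both isoforms, had 7779 to 9444 normalized counts in PKM2fl/fl sham hearts and 11710 to 14242 in PKM2-/- sham hearts, which does not check the removal of a single exon. The 20 cardiomyocyte marker genes were present in every library. One library stood apart: PKM2fl/fl 3d MI replicate 3 had a mean log2 level of these 20 genes of 13.08, against 14.37 and 14.45 in the other PKM2fl/fl MI hearts, and results that rest on it are also given without it.

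MI was compared with sham surgery in each genotype, which addresses how the infarct changed the junction genes. In PKM2fl/fl hearts 6 of 10 members fell and 1 rose, against 25.3% of all genes tested that were lower and 24.8% that were higher (limma, adjusted p under 0.05). In PKM2-/- hearts 8 of 10 fell and 1 rose, against 28.1% lower and 28.7% higher over all genes. The median log2 fold change of the members was -0.64 in PKM2fl/fl and -0.93 in PKM2-/-, beside medians over all genes of 0.00 and 0.01. With a further requirement of at least a 2-fold change, 3 members (Dsp, Dsg2 and Dsc2) were lower in PKM2fl/fl, where 11.1% of all genes were, and 4 (also Pkp2) in PKM2-/-, where 14.3% were. Without PKM2fl/fl 3d MI replicate 3, the PKM2fl/fl counts were still 6 lower and 1 higher, and 2 members were at least 2-fold lower. The PKM2fl/fl log2 fold changes were then -1.07 for Dsg2, -1.01 for Dsc2, -0.73 for Pkp2 and -0.59 for Cdh2. Each was smaller in size than with all libraries.

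**Figure D1:**
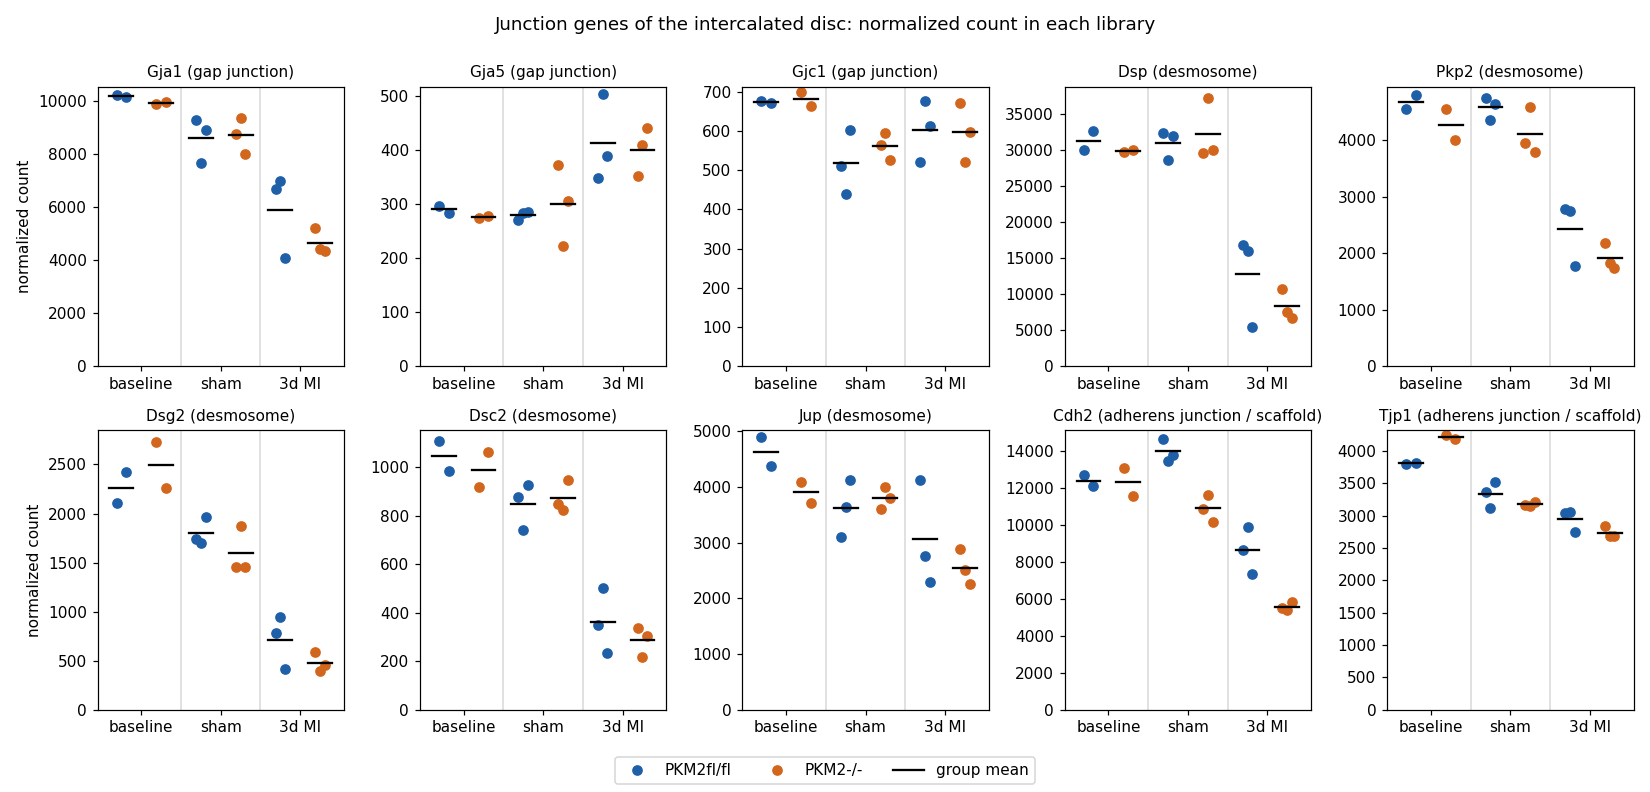
Normalized count (reads divided by the library's size factor, linear axis from 0) of each of the 10 genes in each of the 16 libraries, by treatment; points are libraries, colours are genotypes and black lines are group means. Dsp, Dsg2, Dsc2, Pkp2, Gja1, Cdh2 and Tjp1 were lower in every MI library than in every sham library of the same genotype, while Gja5 was higher after MI in group mean.

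The cardiomyocyte genes fell as well. Of the 20 markers, 19 were lower after MI in PKM2fl/fl and 20 in PKM2-/-, with median log2 fold changes of -1.92 and -2.17, and their summed level was 1930190 to 2063210 normalized counts in PKM2fl/fl sham hearts and 368580 to 824978 after MI. In PKM2-/- hearts the sum was 1672930 to 2025100 after sham and 378465 to 498149 after MI. Leukocyte markers moved the other way, with 12 of the 15 tested higher in each genotype and summed levels of 6418 to 12801 after sham and 27849 to 45900 after MI in PKM2fl/fl (8690 to 11154 and 37398 to 42524 in PKM2-/-). No leukocyte marker was at 0 in any group. In whole tissue, fewer cardiomyocytes and less junction RNA per cardiomyocyte cannot be told apart.

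Gap junction genes went in different directions. Gja1 encodes connexin 43, the main connexin of working ventricular muscle. It had 9267, 7671 and 8896 normalized counts in the PKM2fl/fl sham hearts and 6689, 6967 and 4071 after MI. In PKM2-/- hearts it had 8754, 9365 and 7990 after sham and 5226, 4410 and 4351 after MI. Every MI heart was below every sham heart in both genotypes, and the lowest PKM2fl/fl value came from the library that stood apart. The log2 fold change was -0.58 in PKM2fl/fl (SE 0.165, adjusted p = 0.00855, limma) and -0.90 in PKM2-/- (SE 0.165, adjusted p = 0.000256). Gja1 was thus at 66.9% and 53.5% of its sham level. Without replicate 3 of PKM2fl/fl 3d MI, the change in PKM2fl/fl was -0.33 (adjusted p = 0.0233). The PKM2fl/fl call was lost under scaling to total reads (adjusted p = 0.0824), to total reads outside rRNA-related loci (0.0809) and in a fit of the sham and MI libraries of that genotype alone (0.0581), and the PKM2-/- call under scaling to total reads (-0.39, adjusted p = 0.348).

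Gja5 encodes connexin 40, which is found in the atria, the conduction system and arterial endothelium rather than in working ventricular muscle. Its sham values were 271, 284 and 285 normalized counts in PKM2fl/fl and 373, 223 and 306 in PKM2-/-. After MI they were 349, 504 and 389 in PKM2fl/fl and 353, 410 and 441 in PKM2-/-. The groups did not overlap in PKM2fl/fl, and 1 PKM2-/- sham heart lay above 1 PKM2-/- MI heart. Gja5 rose by 0.54 on the log2 scale in PKM2fl/fl (SE 0.17, adjusted p = 0.0144) and by 0.44 in PKM2-/- (SE 0.17, adjusted p = 0.0376). The PKM2fl/fl call was lost without PKM2fl/fl 3d MI replicate 2 (0.39, adjusted p = 0.0749) and under scaling to total reads (0.37, adjusted p = 0.429). The PKM2-/- call was lost when either of sham replicates 2 and 3 or of MI replicates 2 and 3 was left out, and fell to 0.24 (adjusted p = 0.209) without sham replicate 2.

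Of the cells that carry connexin 40, the arterial and the atrial and conduction marker lists rose in summed level. Their single genes did not all rise. The summed level of 10 arterial endothelial genes was 5145 to 5625 in PKM2fl/fl sham and 7403 to 7954 after MI, and 4957 to 5450 and 7209 to 7506 in PKM2-/-. In PKM2fl/fl 4 of the 10 were higher and 0 lower, beside 24.8% and 25.3% of all genes. In PKM2-/- 5 were higher and 2 lower, beside 28.7% and 28.1%. The list's median log2 fold changes were 0.13 and 0.47. The 12 general endothelial markers summed to 34068 to 37483 and 34650 to 39123 in PKM2fl/fl, which overlapped. The 14 atrial and conduction genes summed to 4235 to 8502 after sham and 10100 to 11523 after MI in PKM2fl/fl. In PKM2-/- they summed to 5387 to 8791 and 11065 to 13008. Of the 12 of them tested, 1 rose and 4 fell in PKM2fl/fl, and 1 rose and 3 fell in PKM2-/-. Their median log2 fold change was -0.89 in each genotype. The part of these lists in the Gja5 result was not tested.

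Gjc1 encodes connexin 45, an early and conduction system connexin. It had 511, 439 and 602 normalized counts in PKM2fl/fl sham hearts and 521, 676 and 614 after MI, and 564, 596 and 526 against 672, 522 and 599 in PKM2-/-. Sham and MI hearts overlapped in both genotypes. The log2 difference was 0.23 in PKM2fl/fl (95% confidence interval -0.05 to 0.50, adjusted p = 0.165) and 0.08 in PKM2-/- (-0.20 to 0.36, adjusted p = 0.613).

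The 3 largest decreases among the members were those of the desmosome genes Dsp, Dsg2 and Dsc2. Dsp encodes desmoplakin, which links the desmosome to intermediate filaments. Its sham values were 32321, 28634 and 31934 normalized counts in PKM2fl/fl and 29659, 37216 and 29977 in PKM2-/-. After MI it had 16766, 15989 and 5450 in PKM2fl/fl and 10744, 7526 and 6649 in PKM2-/-. Every MI heart was below every sham heart, and the 3 PKM2fl/fl MI hearts were spread wide, with 1 below all PKM2-/- MI hearts and the other 2 above all of them. Dsp fell, with log2 fold changes of -1.45 in PKM2fl/fl (SE 0.316, adjusted p = 0.0014) and -1.98 in PKM2-/- (SE 0.316, adjusted p = 7.6e-05), to 36.7% and 25.3% of sham. Without the library that stood apart the PKM2fl/fl change was -0.92 (adjusted p = 0.000495).

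Dsg2 and Dsc2 encode desmoglein-2 and desmocollin-2, the desmosomal cadherins of the heart. Dsg2 had 1745, 1704 and 1962 normalized counts in PKM2fl/fl sham hearts and 782, 943 and 413 after MI. In PKM2-/- it had 1460, 1875 and 1452 after sham and 589, 396 and 456 after MI. The groups were far apart in both genotypes, and Dsg2 fell, with log2 fold changes of -1.42 (SE 0.232, adjusted p = 0.000132) and -1.74 (adjusted p = 1.48e-05). Dsc2 had 879, 740 and 926 normalized counts in PKM2fl/fl sham hearts against 348, 502 and 233 after MI. It had 849, 825 and 949 in PKM2-/- sham hearts against 339, 220 and 306 after MI. Dsc2 fell, with log2 fold changes of -1.29 (SE 0.216, adjusted p = 0.00016) and -1.62 (adjusted p = 1.5e-05), again with no overlap.

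Pkp2 encodes plakophilin-2, the armadillo protein that recruits desmoplakin to the disc. It had 4745, 4352 and 4641 normalized counts in PKM2fl/fl sham hearts and 2779, 2754 and 1778 after MI, and 3956, 4587 and 3785 against 2181, 1832 and 1737 in PKM2-/-. All MI hearts were below all sham hearts. The log2 fold changes were -0.94 (SE 0.15, adjusted p = 0.000106) and -1.10 (SE 0.15, adjusted p = 1.73e-05), so that Pkp2 was at 52.2% and 46.6% of sham. The PKM2-/- call was lost under scaling to total reads (-0.59, adjusted p = 0.122).

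Jup encodes plakoglobin, a catenin shared by desmosomes and adherens junctions. It had 3103, 3647 and 4126 normalized counts in PKM2fl/fl sham hearts and 4130, 2756 and 2292 after MI. The highest and the lowest of these 6 values both came from MI hearts, and the difference did not pass the test (-0.28, 95% confidence interval -0.64 to 0.09, adjusted p = 0.189). Without PKM2fl/fl 3d MI replicate 1, which held the highest value, it was -0.52 with an adjusted p of 0.00627, and without replicate 3, the library that stood apart, it was -0.09 with an adjusted p of 0.663. In PKM2-/- hearts Jup had 3606, 3998 and 3803 after sham and 2883, 2518 and 2255 after MI, which did not overlap, and it fell (log2 fold change -0.58, SE 0.171, adjusted p = 0.00909). This call was lost under scaling to total reads (-0.07, adjusted p = 0.873) and to total reads outside rRNA-related loci (-0.23, adjusted p = 0.278).

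Cdh2 encodes N-cadherin, the adherens junction cadherin of cardiomyocytes. It had 14674, 13490 and 13785 normalized counts in PKM2fl/fl sham hearts and 8646, 9920 and 7327 after MI. It had 10863, 11648 and 10192 in PKM2-/- sham hearts and 5487, 5402 and 5825 after MI. The MI hearts were below the sham hearts in both genotypes, at 61.3% and 51.2% of sham, with log2 fold changes of -0.71 (SE 0.115, adjusted p = 0.000125) and -0.97 (SE 0.115, adjusted p = 5.23e-06). Under scaling to total reads the PKM2-/- call was lost (-0.45, adjusted p = 0.266). Tjp1 encodes ZO-1, a scaffold at the edge of connexin 43 plaques and at the tight junctions of endothelium. Its values were 3362, 3128 and 3514 after sham and 3042, 3056 and 2755 after MI in PKM2fl/fl, and 3167, 3158 and 3218 against 2843, 2688 and 2685 in PKM2-/-. These were the smallest differences among the members that were lower after MI. The log2 difference was -0.18 in PKM2fl/fl (SE 0.078, adjusted p = 0.0727 by limma, not past the threshold, and 0.0316 by DESeq2, past it), and Tjp1 fell by 0.22 in PKM2-/- (SE 0.078, adjusted p = 0.0272). The PKM2-/- call was lost when either of sham replicates 1 and 3 or of MI replicates 2 and 3 was left out. It was also lost by limma without the filter (adjusted p = 0.0643) and by edgeR without it (adjusted p = 0.372). A limma fit of the sham and MI libraries of that genotype alone lost it too (adjusted p = 0.0561). Tjp1 in PKM2-/- was also the only member whose called direction turned under scaling to each library's total of reads instead of the size factors (0.30, adjusted p = 0.432). That scaling moved the median of all genes by 0.52 in this comparison, and relative to that median Tjp1 was at -0.23.

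**Figure D2:**
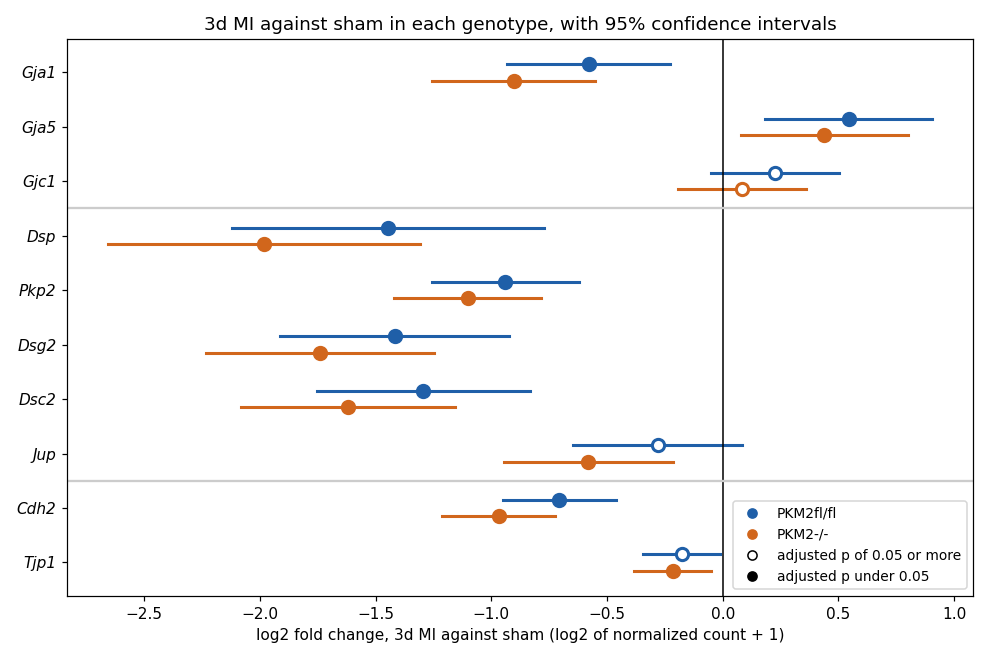
Log2 fold change of each of the 10 genes after MI against sham, on the horizontal axis, with its 95% confidence interval, for PKM2fl/fl and PKM2-/- hearts (n = 3 per group); filled points passed an adjusted p of 0.05. Dsp, Dsg2, Dsc2 and Pkp2 lie farthest to the left in both genotypes, and Gja5 is the only filled point to the right of 0.

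The fall in the junction genes was also set against that of the cardiomyocyte markers of the same library. For each library the mean log2 level of the 20 markers was subtracted from the log2 level of the member, which removes the scaling of the library from the comparison. On this relative scale all 10 members were higher in every MI heart than in every sham heart of PKM2fl/fl, where 88.7% of all genes tested were. In PKM2-/- 8 members were, where 90.3% of all genes were, so the members' counts were near the share over all genes. Dsp and Dsg2 overlapped between sham and MI hearts in PKM2-/-. The median of all genes was 1.82 higher relative to the markers in PKM2fl/fl and 2.12 higher in PKM2-/-.

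The size of the relative difference varied between the members. Dsp was 0.38 higher relative to the markers after MI in PKM2fl/fl and 0.13 higher in PKM2-/-, Dsg2 0.41 and 0.37, and Dsc2 0.53 and 0.49. These 3 desmosome genes had the smallest differences from the cardiomyocyte markers. Pkp2, Cdh2 and Gja1 were 0.89, 1.12 and 1.24 higher in PKM2fl/fl, and 1.01, 1.15 and 1.21 higher in PKM2-/-. Jup (1.54 and 1.53), Tjp1 (1.65 and 1.90), Gjc1 (2.05 and 2.20) and Gja5 (2.37 and 2.55) departed most from the markers. With 3 hearts against 3, the exact two-sided permutation test cannot go below p = 0.1, which was reached for 18 of the 20 values (adjusted p = 0.111 over 20), so none of these differences can pass a threshold of 0.05 alone.

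**Figure D3:**
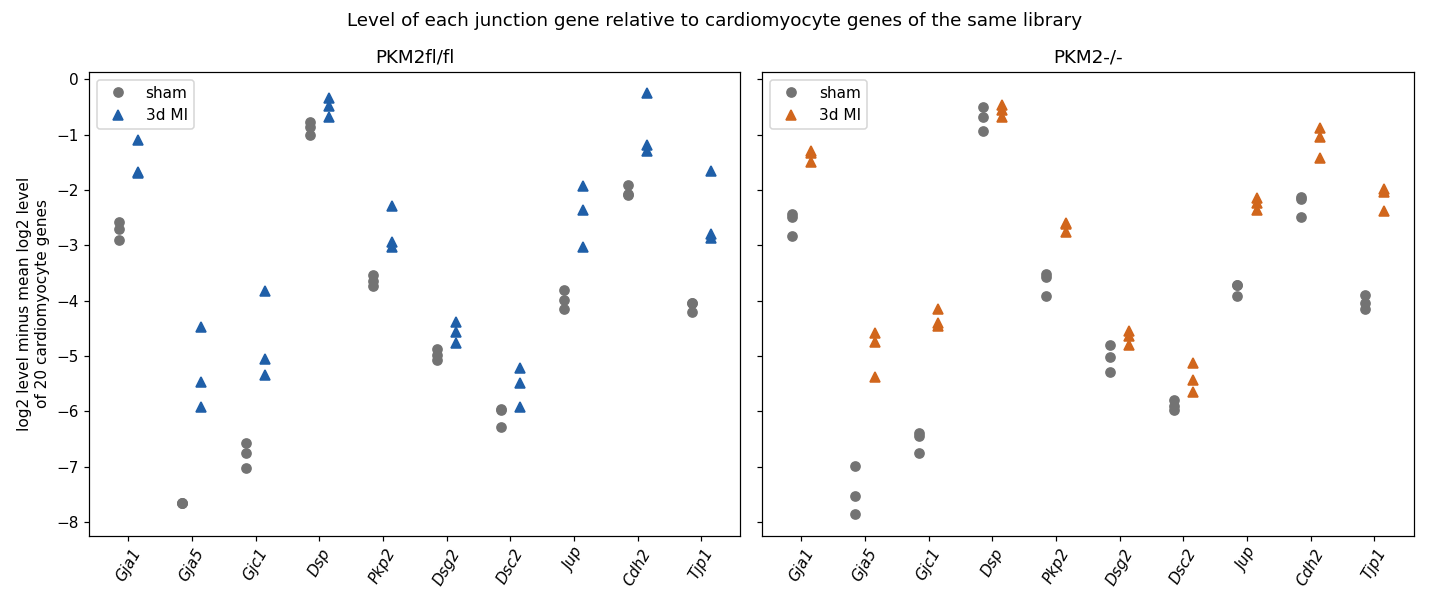
Log2 level of each of the 10 genes minus the mean log2 level of 20 cardiomyocyte genes in the same library (vertical axis), for sham (grey circles) and MI (triangles) hearts of each genotype. The sham and MI points of Dsp, Dsg2 and Dsc2 lie closest together in group mean. Those of the other members lie farther apart, most of all in Gja5, Gjc1, Tjp1 and Jup.

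The next comparison asked whether the response to MI differed between PKM2fl/fl and PKM2-/- hearts. By the interaction term, 0 of 10 members passed, against 0% of all genes (limma, 0 of 20576, with 0 members and 1703 genes at an unadjusted p under 0.05). By limma-voom and by edgeR with the same filter the counts over all genes were also 0. Without the filter edgeR called 538 genes and DESeq2 called 52, and both called 0 members. The estimate was below 0 for all 10, which means a more negative MI response in PKM2-/-, but it was above 0 for all 10 when libraries were scaled to total reads, which moved the median of all genes by 0.68. The intervals were wide. For Dsp the difference was -0.53 (95% confidence interval -1.49 to 0.42, adjusted p = 0.772), for Gja1 -0.32 (-0.82 to 0.17, adjusted p = 0.74) and for Cdh2 -0.26 (-0.61 to 0.08, adjusted p = 0.703). Tjp1 had the narrowest, from -0.27 to 0.19.

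PKM2fl/fl 3d MI replicate 3 bore on these values. Without it, the Dsp interaction was -1.06 (SE 0.228, adjusted p = 0.0275), the only member that then passed, and Gja1 was at -0.57 (adjusted p = 0.0557). Without this library 484 of 20576 genes passed the interaction, in place of 0. The cardiomyocyte marker level of the PKM2fl/fl MI hearts without it was 14.37 and 14.45, above the 13.38 to 13.85 of the PKM2-/- MI hearts. The part of the marker level in the genotype difference of the junction genes was not tested.

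Genotypes were then compared within each treatment. At baseline 0 of 10 members differed, against 0.00972% of all genes (limma, 2 of 20576 called). At an unadjusted p under 0.05 there were 0 members and 748 genes. With edgeR, DESeq2 and limma-voom 0 members were called as well. Over all genes edgeR called 1 of 20576, limma-voom 2 of 20576, DESeq2 17 of 21439 and edgeR without the filter 214 of 40116. The estimates ran from -0.25 for Jup to 0.14 for Tjp1. Baseline Gja1 was 10234 and 10141 normalized counts in PKM2fl/fl and 9894 and 9947 in PKM2-/-, and Dsp was 29965 and 32599 against 29693 and 30013. With 2 hearts per genotype the 95% confidence intervals were wide, from -0.47 to 0.39 for Gja1 and from -0.89 to 0.76 for Dsp. After sham surgery 0 of 10 members passed, against 0.00972% of all genes (limma, 2 of 20576 called). At an unadjusted p under 0.05 there were 1 member, Cdh2, and 2047 genes. With edgeR, DESeq2 and limma-voom 0 members were called. Over all genes edgeR called 2 of 20576, limma-voom 2 of 20576, DESeq2 273 of 19883 and edgeR without the filter 716 of 40116.

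After MI 1 of 10 members differed between genotypes, against 0.967% of all genes. This was Cdh2, which was lower in PKM2-/- hearts (-0.62, SE 0.115, adjusted p = 0.0292), with all 3 PKM2-/- MI hearts below all 3 PKM2fl/fl MI hearts. After sham surgery the 3 PKM2-/- hearts also lay below the 3 PKM2fl/fl hearts (-0.36, SE 0.115, adjusted p = 0.261), and at baseline the genotypes overlapped, at 12697 and 12118 normalized counts in PKM2fl/fl and 13079 and 11574 in PKM2-/-. The call after MI was lost when any 1 of 5 libraries was left out, namely PKM2fl/fl 3d MI replicate 1 (adjusted p = 0.0757) or 2 (0.118), or PKM2-/- 3d MI replicate 1 (0.0985), 2 (0.0797) or 3 (0.0797), and held without PKM2fl/fl 3d MI replicate 3. It was also lost under scaling to total reads (-0.25, adjusted p = 0.659) and in a fit of the 6 MI libraries alone (adjusted p = 0.184). Cdh2 relative to the cardiomyocyte markers was -2.09 to -1.91 in PKM2fl/fl and -2.48 to -2.12 in PKM2-/- sham hearts, and -1.29 to -0.24 and -1.43 to -0.87 after MI, where the ranges overlapped.

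The other members had negative estimates after MI as well, from -0.01 for Gjc1 to -0.51 for Dsg2, and none of them passed. Pkp2 (-0.32, adjusted p = 0.288) and Dsg2 (adjusted p = 0.283) had unadjusted p-values under 0.05. When PKM2fl/fl 3d MI replicate 3 was left out, 5 members passed: Dsp (-1.01, adjusted p = 0.00175), Dsg2 (-0.86, adjusted p = 0.00376), Cdh2 (-0.73, adjusted p = 0.000402), Gja1 (-0.56, adjusted p = 0.00483) and Pkp2 (-0.54, adjusted p = 0.00626). Over all genes the count then rose from 199 to 2271. Down-weighting that library by limma's array weights, which gave it 0.25 against 0.526 to 2.57 for the other libraries, called 6 members and 2040 genes.

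Sham surgery was compared with baseline over both genotypes to see what the operation itself did. Here 1 of 10 members differed, against 6.54% of all genes. Tjp1 had 3805, 3819, 4246 and 4182 normalized counts in the 4 baseline hearts and 3128 to 3514 in the 6 sham hearts, with no overlap. It fell by 0.30 on the log2 scale (SE 0.0616, adjusted p = 0.00883). This call was lost under scaling to total reads (-0.22), to total reads outside rRNA-related loci (-0.27, adjusted p = 0.164) and with edgeR without a filter (-0.31, adjusted p = 0.0817). In the same comparison 14 of 15 leukocyte markers and 6 of 12 fibroblast markers were higher after sham surgery and none of either list was lower, while the cardiomyocyte markers had a median of -0.02. Summed leukocyte levels were 4290 to 5939 normalized counts at baseline and 6418 to 12801 after sham. Their part in the Tjp1 result was not tested. Gjc1 (-0.34, adjusted p = 0.0662), Dsg2 (-0.49, adjusted p = 0.14) and Gja1 (-0.22, adjusted p = 0.395) were also lower in every sham heart than in every baseline heart. None of them passed by limma, and the share of all genes that separated in this way was not counted. Dsg2 had 2104 to 2733 normalized counts at baseline and 1452 to 1962 after sham. Dsp (0.04) and Cdh2 (0.00) had estimates near 0, with intervals from -0.49 to 0.58 and from -0.20 to 0.19.

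To compare levels between members, normalized counts were divided by the length of all annotated exons of the gene merged (5.44 kb for Dsc2 to 13.1 kb for Pkp2, GENCODE M39). In PKM2fl/fl sham hearts Dsp had the highest level, 3192 ± 209 normalized counts per kb (SD, n = 3), followed by Cdh2 at 1613 ± 71.1 and Gja1 at 700.0 ± 67.9. Tjp1 (421 ± 24.6), Jup (408 ± 57.6) and Pkp2 (351 ± 15.6) came next, and Jup was not separated from either neighbour beyond its spread. Dsg2 (188 ± 14.5) and Dsc2 (156 ± 17.8) followed, and Gjc1 (52.4 ± 8.28) and Gja5 (47.0 ± 1.27) were lowest and overlapped each other. The transmembrane desmosomal cadherins were thus far below the plaque protein desmoplakin on this scale. After MI in PKM2fl/fl, Dsp was still highest by merged exons at 1313 ± 652, and its range overlapped that of Cdh2 at 996 ± 150. Annotated exons that the heart does not use lower these levels. With the longest transcript in place of merged exons, Jup and Pkp2 came before Tjp1 in PKM2fl/fl sham hearts. By that length Cdh2 was above Dsp in group mean after MI, at 1754 against 1322 in PKM2fl/fl and 1132 against 862 in PKM2-/-. Their ranges overlapped in both genotypes.

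Gja1 made up most of the connexin RNA per length. Among Gja1, Gja5 and Gjc1 it held 87.5% ± 0.898 in PKM2fl/fl sham and 78.0% ± 5.43 in PKM2fl/fl MI hearts (SD, n = 3). In PKM2-/- hearts it held 86.8% ± 1.61 and 74.7% ± 2.27. The share of Gja5 was 5.92% ± 0.673 after sham and 11.6% ± 2.64 after MI in PKM2fl/fl, and 6.23% ± 1.66 and 13.4% ± 2.36 in PKM2-/-. Sham and MI hearts did not overlap in either share.

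**Figure D4:**
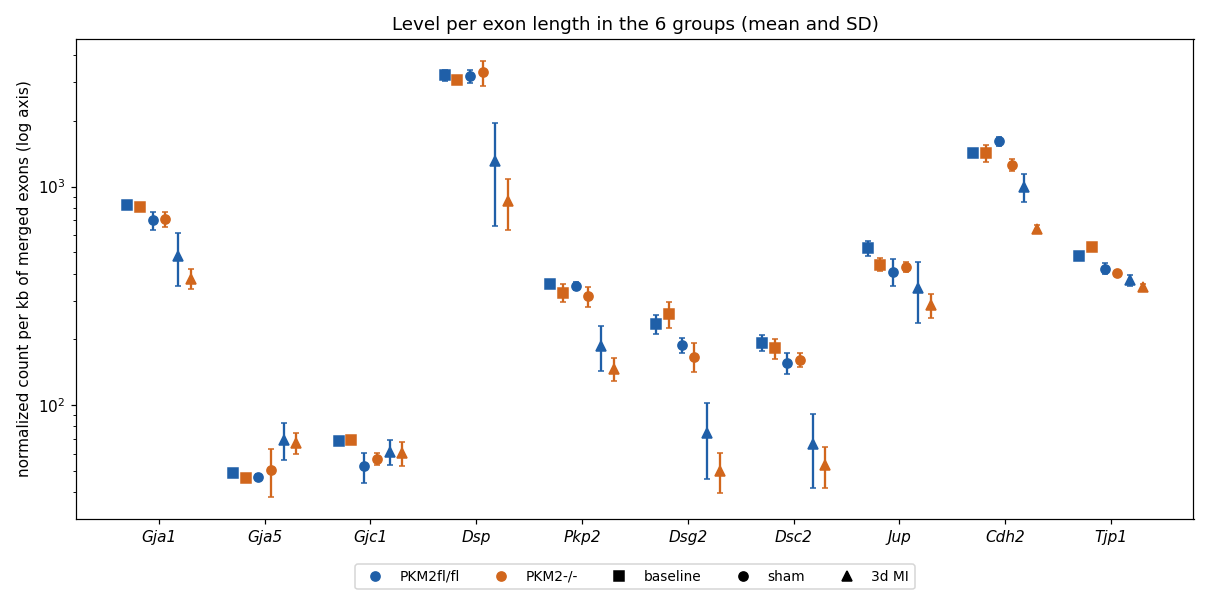
Normalized count per kb of merged exons (log axis) of the 10 genes in the 6 groups, as mean and SD (n = 2 at baseline, 3 otherwise); squares are baseline, circles sham and triangles MI. Dsp, Cdh2 and Gja1 are the highest before MI, and Gjc1 and Gja5 the lowest, between 46.4 and 69.2 normalized counts per kb at baseline.

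The 6 lists of other junction genes held 98 genes, of which 79 were tested. Their counts after MI stand beside 24.8% higher and 25.3% lower over all genes in PKM2fl/fl, and 28.7% and 28.1% in PKM2-/-, and differences between lists were not tested. Other connexins and pannexins were sparse, with 9 of 20 tested and 4 to 6 of 20 at 0 in a whole group. Of the 9, 5 rose and 2 fell in PKM2fl/fl and 4 rose and 4 fell in PKM2-/-. Panx1, a pannexin channel, rose by 1.60 and 1.71 on the log2 scale (adjusted p = 1.2e-06 and 4.78e-07). Gja3, the lens connexin 46, fell (-1.15 and -2.07, adjusted p = 0.00248 and 1.26e-05), from a mean of 346 normalized counts to 167 in PKM2fl/fl. The epithelial connexin Gjb5 rose in both genotypes (log2 fold changes 3.08 and 3.55, adjusted p = 0.00341 and 0.000987), to a mean of 27.7 normalized counts in PKM2fl/fl. Beside it, 3 of 11 epicardial and mesothelial markers rose in PKM2fl/fl and 9 of 11 in PKM2-/-, and their part in that change was not tested.

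Among the other desmosomal family genes, 7 of 14 were tested, and 3 fell and 0 rose in both genotypes. These were Ppl, a plakin (-1.61 and -2.02), Pkp4, a plakophilin relative (-0.86 and -1.02), and Perp, a desmosomal membrane protein (-0.96 and -0.76). Dsg3, an epidermal desmoglein, was at 8.0 normalized counts in PKM2fl/fl sham and 2.5 after MI and did not pass (adjusted p = 0.0623). The list's median was -0.86 in PKM2fl/fl and -0.41 in PKM2-/-.

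Catenins and fascia adherens partners were split, with 7 of 15 higher and 4 lower in each genotype and medians of 0.14 and 0.15. Ctnna3, the alpha-T-catenin of the cardiac area composita, fell (-1.60 and -2.09, adjusted p = 1.92e-05 and 1.23e-06), from a mean of 12671 to 4373 normalized counts in PKM2fl/fl. Lmo7, which binds adherens junctions to actin, fell as well (-1.43 and -1.72). Ctnnd2, a delta-catenin, rose by 1.83 and 1.19, and the immunoglobulin-like adhesion gene Nectin3 rose by 0.90 and 0.78. Of the 7 cadherins of other cells tested, 3 rose and 1 fell in each genotype. Cdh5, the endothelial cadherin, rose by 0.76 and 0.75, Cdh3 and Cdh1, of epithelia, rose from means of 23.8 and 4.5 to 172 and 33.5 normalized counts in PKM2fl/fl, and Cdh4 fell (-2.03 and -2.44).

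Scaffold, signalling and membrane proteins of the disc were mostly lower. Of 25 tested, 17 fell and 2 rose in each genotype, with medians of -0.78 and -1.03. Tmem65, a connexin 43 partner, fell (-1.06 and -1.18), as did Itgb1bp2 (melusin, a muscle integrin partner, -1.48 in PKM2fl/fl) and Cxadr (the coxsackievirus and adenovirus receptor, -0.79 and -0.98), whereas Tmem43, a cardiomyopathy gene of the nuclear envelope, rose by 0.87 in both. Cxadr was the only one of the 79 genes that passed any comparison of genotypes, beside 0.967% of all genes called after MI. After MI it was lower in PKM2-/- (-0.59, adjusted p = 0.0239), at a mean of 492 normalized counts against 738 in PKM2fl/fl. Its estimate after sham surgery was also negative (-0.40) and did not pass. Whether the call after MI holds under the other scalings is not given here. Genes of connexin 43 trafficking and phosphorylation were split, with 5 of 16 higher and 4 lower in PKM2fl/fl and 6 and 3 in PKM2-/-. Dbn1 (drebrin, an actin binder) rose by 2.41 and 2.27, Ubxn11 by 1.28 and 1.86, the kinase gene Src by 1.12 and 1.18, and Mapre1 (EB1, a microtubule tip protein) by 0.52 and 0.77.

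**Figure D5:**
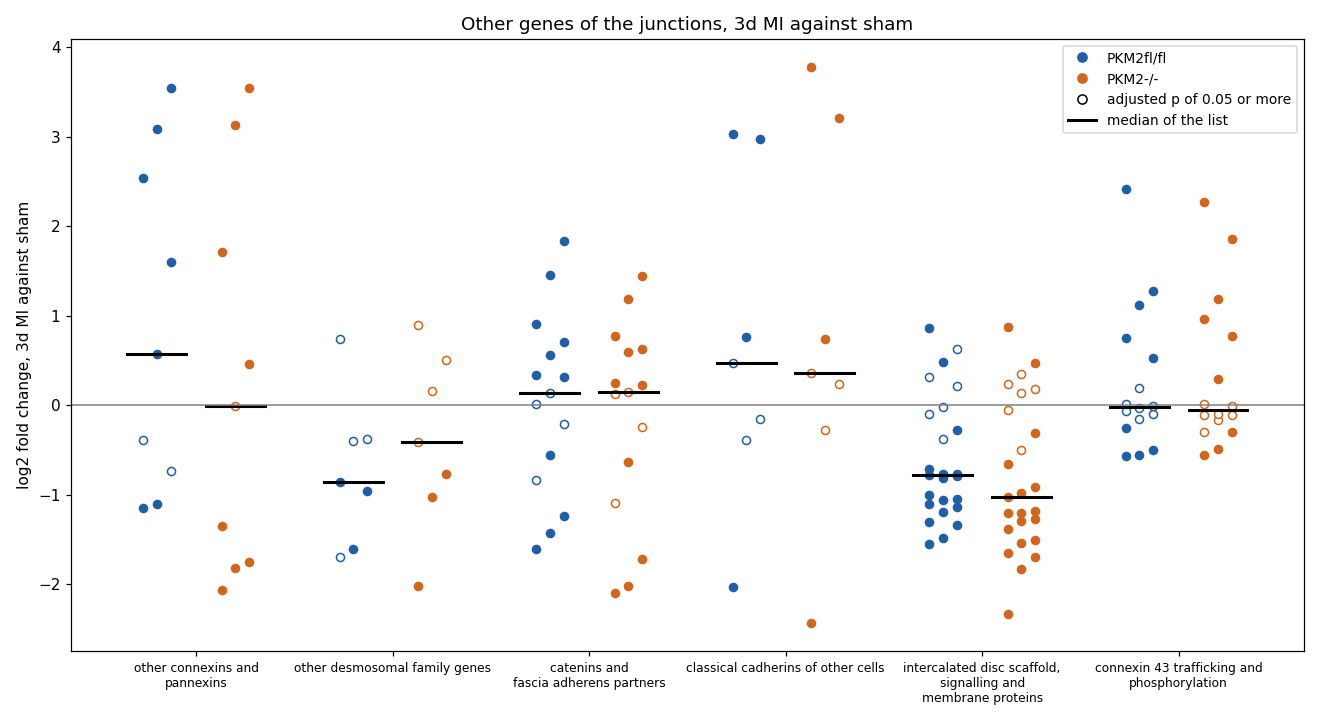
Log2 fold change after MI against sham (vertical axis) of the tested genes of 6 lists of other junction genes in PKM2fl/fl and PKM2-/- hearts; filled points passed an adjusted p of 0.05 and black bars are list medians. The scaffold, signalling and membrane list has the lowest median in PKM2-/- (-1.03), and 17 of its 25 genes lie below 0 as filled points in each genotype.

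Across the 16 libraries, which share the contrast between MI and the other groups, Gja1, Dsp, Pkp2, Dsg2 and Dsc2 followed one another, with Pearson's r of log2 levels between 0.95 and 0.98 for each pair. Gja5 ran against the others except Gjc1 (r from -0.79 to -0.63), and Gjc1 followed none of them closely (r from -0.04 to 0.42). The genes most like Dsp over all 20576 were Myo18b, Sptb and Myh14 (r from 0.994 to 0.995), those most like Gja1 were Strip2, Kcnk3 and Speg (0.983 to 0.988), and those most like Pkp2 were Dcaf8 and Dcaf11 (both 0.993). For Dsc2 they were Acss2, D5Ertd579e and BB218582 (0.988 to 0.990), for Cdh2 Pcmtd2, C230072F16Rik and Sox6 (0.977 to 0.980), and for Jup Leng8, Dusp27 and Fam160b2 (0.933 to 0.953). Tjp1 was most like Slc26a10 and Acvr2b (both 0.970), Gja5 most like 4930573H18Rik, Gm26771 and Dpysl2 (0.922 to 0.967), and Gjc1 most like Phtf1, Fggy and Gm49969 (0.797 to 0.807).

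The gene most like Dsg2 was Gm16090 (r = 0.996), ahead of Agtr1a and Cyfip2 (both 0.993). In the annotation Gm16090 lies on the opposite strand and shares 330 exon bases with Dsg2. Dsp likewise shares 539 exon bases with Gm10129, Gja5 shares 165 with Gpr89, and Gja1 shares 143 with Gm68148, all on the opposite strand. Strand settings of the counting are not given in the sources used here, so reads from such a stretch cannot be assigned to 1 gene of the pair with certainty.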

How the data were processed

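Left ventricular RNA was depleted of rRNA and sequenced, 1 mouse per library. Per the study's methods, the authors used PRINSEQ to filter reads, HISAT2 for alignment to mm10, featureCounts for gene counts and DESeq2 for normalization (versions not given in the sources used here). The deposited signal is the read count divided by a size factor per library. Whole reads were recovered for 100% of values, within 0.1 read. The same table holds the authors' mean over libraries, fold change and p-values between baseline groups, which were not used.

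The main test was limma 3.58.1 (limma-trend, R 4.3.3) on log2 of the value plus 1, with all 16 libraries in 6 groups, for genes with a mean of at least 10, and Benjamini-Hochberg adjustment. Fold changes on this scale understate those of low genes. Genes with an adjusted p under 0.05 were called. Alternatives were count tests of the recovered reads (limma-voom, edgeR 4.0.16, DESeq2 1.42.0), other scalings, pseudocounts and filters, array weights, a replicate block, each contrast's groups alone, and each library left out. The fits were tested on simulated data. Levels relative to cardiomyocyte markers were compared by exact permutation (SciPy 1.17.1). Exon lengths came from GENCODE M39 (GRCm39), positions and promoters from RefSeq (GRCm38.p6). Named genes are all members, of each other list the 4 with the smallest adjusted p after MI in PKM2fl/fl and any that passed a genotype comparison, and for each member the 3 most alike. Some genes that this rule names are not reported here. The members and lists were chosen with earlier results of these data known.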

Additional observations from a re-analysis of the deposited data

How the results depend on the processing

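The count of members lower after MI in PKM2fl/fl stayed within 1.5 times of 6 under every alternative run. In PKM2-/- the 8 lower members became 3 (Dsp, Dsg2 and Dsc2) under scaling to total reads, which moved the median of all genes by 0.52. Tjp1 in PKM2-/- turned to 0.30 under that scaling and to 0.13 with total reads outside rRNA-related loci. The single higher member, Gja5, was also unstable. In PKM2fl/fl the count of higher members was 0 under scaling to total reads and 0 to 1 with each library left out. In PKM2-/- it was 2 with total reads outside rRNA-related loci (with Gjc1), 0 without the filter, with DESeq2, with the groups of the contrast alone and with a replicate block (Gja5 adjusted p = 0.0548), and 0 to 1 with each library left out. Replicate numbers name different mice. Of 36 pairs of libraries with the same number in different groups, 1 had a correlation of deviations from the group mean over 0.1. Of 70 pairs with other numbers, 7 did. Deviations within such small groups are bound to one another, so these correlations cannot exclude something shared by number. The block changed no other member's call.

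The interaction count was 0 to 1 with each library left out. For genotype after MI, the count of 1 became 0 with total reads or total reads outside rRNA-related loci and with the groups of the contrast alone, 3 with edgeR without a filter, 6 with array weights, and 0 to 5 with each library left out. For sham against baseline it became 0 with total reads or total reads outside rRNA-related loci, and 2 with edgeR without a filter or DESeq2. It became 3 with the groups of the contrast alone or array weights, and 1 to 2 with each library left out. Counts over all genes moved as well. For genotype after MI they went from 199 to 1710 with edgeR without a filter and to 2040 with array weights. For sham against baseline they went from 1346 to 2376 with edgeR without a filter, 1888 with DESeq2 and 2347 with array weights. With the groups of that contrast alone, 910 genes were higher and 638 lower. The share of Gja1 among the connexins in PKM2fl/fl sham was 90.7% with the longest annotated transcript. The cause of these changes was not tested. The members rest on 152 to 65142 reads each.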
